A study of Mus musculus with 5 samples.

Results

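Axon guidance ligands and receptors steer growing nerve fibres, blood vessels and migrating cells, and many of them are also used by epithelia. The 50 mouse genes described here form a list of names, chosen with earlier results of these data known. Contrasts of this list with all genes are thus descriptions only. The rule that assigns peaks to the genes uses positions, not peak strengths. The genes are 15 semaphorins, 9 plexins and neuropilins, 10 Eph receptors, 6 ephrins, 5 Slits and Robos, and 5 netrins and netrin receptors. The gene table holds 21887 protein-coding genes. Family values cover these listed members alone, and 26 further receptors and ligands of the pathways are counted apart. Each peak of accessible chromatin was counted for a gene when its summit lay in the gene body or within 50 kb of it with no other protein-coding gene nearer. All 50 members had at least 1 such summit.

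Accessibility had been profiled by ATAC-seq, which reads out where a transposase can cut into chromatin, in CD1 mouse embryos with no transgene or mutation named in the labels. The groups were distal ectoderm of the forelimb (2 libraries) and of the hindlimb (2 libraries), both at E14.5 (embryonic day), and forebrain at E13.5 (1 library). Trypsin had been used to lift ectoderm off the mesoderm and collagenase to digest forebrain. Effects of tissue, stage and dissociation cannot be told apart in any contrast of ectoderm with forebrain. Nothing in the labels ties a replicate to its own embryo or litter, and the spread between replicates may be technical.

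Semaphorins are secreted or membrane-bound ligands that signal through plexins, and the secreted class 3 members mostly need a neuropilin as co-receptor. Ephrins are anchored ligands for the Eph receptor tyrosine kinases, with A ephrins held by a lipid anchor and B ephrins by a transmembrane domain. Slits are secreted ligands of Robo receptors, and netrins act through Dcc and the Unc5 receptors. In the forebrain these systems guide commissural, thalamic and cortical fibres. In skin, semaphorins and ephrins are made by epidermal cells, and sensory nerves and vessels that approach the epidermis carry receptors for them.

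The deposited lists held 82649 and 81232 summits for forelimb replicates 1 and 2, 55391 and 86219 for the hindlimb pair, and 151077 for forebrain. Read totals are not in the lists, so depth is not known and counts are given as summits per 1000 summits of the same list. Of 10 epidermis markers, 8, 9, 6 and 8 had a peak at a start in the 4 ectoderm libraries (in the order forelimb 1, forelimb 2, hindlimb 1, hindlimb 2), against 4 in forebrain, and of 11 forebrain markers 3, 2, 2 and 3 had one in ectoderm against all 11 in forebrain. Markers of other cells were also seen. Of 6 limb mesenchyme markers, 5, 4, 3 and 4 had a start peak in ectoderm against 6 in forebrain, of 6 endothelial markers 3, 2, 1 and 2 against 4, of 5 melanocyte and Schwann cell markers 2 in each ectoderm library against 3, and of 5 blood markers 1 in each against 2. What part other cells have in the peaks described here was not tested. With 4 libraries against 1, an exact permutation test cannot give a p under 0.2, and with 2 against 2 none under 0.333, so the comparisons are descriptions of these libraries with no test. Where no peak is listed, accessibility may still be present below the calling threshold.

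The clearest difference in where a member's start was open lay at Sema4a, a membrane-bound semaphorin known from T cell and retinal biology. RefSeq lists 4 starts for it on the minus strand of chromosome 3. In ectoderm the innermost was covered by a peak in each of the 4 libraries, in forebrain by none, and the next 2 upstream had a summit within 1 kb in forelimb replicate 1, hindlimb replicate 2 and forebrain. The opposite case was Epha7, an Eph receptor whose start had one of the strongest peaks in every list. Promoter windows, 250 bases before to 50 after a start, are shown for the inner and an upstream Sema4a start, which had peaks in different sets of libraries, and for Epha7, whose window was overlapped by a peak in all 5 libraries. They are RefSeq sequences of GRCm38.p6, the assembly called mm10, read 5′ to 3′ on the minus strand for Sema4a and the plus strand for Epha7. They cover chr3:88455712-88456011 (Sema4a, inner start), chr3:88459052-88459351 (Sema4a, upstream start) and chr4:28812881-28813180 (Epha7). Capitals mark 3 motifs searched on both strands, the GC box GGGCGG, the E-box CAGNTG and the AP-1 site TGANTCA, none of which overlapped another in these windows.
Sema4a inner start: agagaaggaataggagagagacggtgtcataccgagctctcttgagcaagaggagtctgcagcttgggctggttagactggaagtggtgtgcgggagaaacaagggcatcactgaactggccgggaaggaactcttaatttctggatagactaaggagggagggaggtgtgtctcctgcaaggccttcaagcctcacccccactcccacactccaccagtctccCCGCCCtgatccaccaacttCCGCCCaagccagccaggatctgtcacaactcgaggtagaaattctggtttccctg
Sema4a upstream start: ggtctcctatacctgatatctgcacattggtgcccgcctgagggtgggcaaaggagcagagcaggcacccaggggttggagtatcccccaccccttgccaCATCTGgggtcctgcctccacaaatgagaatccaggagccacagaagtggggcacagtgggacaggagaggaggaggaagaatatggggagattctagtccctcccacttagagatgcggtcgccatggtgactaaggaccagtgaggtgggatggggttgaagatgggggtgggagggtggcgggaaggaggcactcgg
Epha7: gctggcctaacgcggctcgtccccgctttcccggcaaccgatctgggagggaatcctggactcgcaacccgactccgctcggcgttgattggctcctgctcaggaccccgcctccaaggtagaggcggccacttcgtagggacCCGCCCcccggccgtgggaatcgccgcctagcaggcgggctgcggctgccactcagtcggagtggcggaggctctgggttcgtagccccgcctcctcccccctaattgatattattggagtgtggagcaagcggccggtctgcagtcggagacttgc
The inner Sema4a window held 2 GC boxes, both as CCGCCC, and the upstream window held none and 1 E-box. The Epha7 window held 1 GC box, and no AP-1 match was found in these windows. Among 32817 listed promoter windows of the same length, 35.6% held a GC box, 51.4% an E-box and 7.81% an AP-1 match. Among 55 listed windows of 41 members, 40 held a GC box, 19 an E-box and 2 an AP-1 match. A CCAAT box (CCAAT) was found in 12 of the 55 member windows, against 37.4% of all windows, and TATAAA in 2, against 13.6%. Member windows had a median G+C share of 64.7% and a median observed over expected CpG ratio of 0.681, against 52.7% and 0.383 over all listed windows. The listed windows belong to 26994 genes, more than the 17492 protein-coding genes with a listed promoter. All members are protein-coding, so the contrasts of motifs and composition are not matched for gene type. A match to such letters is a description and not a bound site.

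Ectoderm lists gave a smaller share of their summits to axon guidance genes than the forebrain list. The members held 476 and 499 summits in the forelimb lists, 299 and 516 in the hindlimb lists and 1389 in the forebrain list. Per 1000 listed summits this was 5.76, 6.14, 5.40 and 5.98 in ectoderm (mean 5.82 ± 0.323 SD, n = 4), against 9.19 in forebrain. The forebrain value was 1.5 to 1.70 times that of each ectoderm library, and no ectoderm library reached it. When each list was shortened to its 55391 most significant summits, the ectoderm mean was 5.82 and forebrain had 7.94 per 1000.

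Of the 50 members, 32 had fewer summits per 1000 in each ectoderm library than in forebrain, which held for 17.6% of the 19367 protein-coding genes with any summit. More summits per 1000 in each ectoderm library were found for 6, against 28.2% of all genes. With lists of equal length this was 6 (12%), against 12.1%. These sets of 6 shared 3 genes. Sema3f, Plxnb1 and Plxnb2 lost the call with lists of equal length, and Sema3c, Sema4d and Unc5b gained it. The median ratio of ectoderm mean to forebrain was 0.676 over the members and 1.18 over the 17218 genes with a forebrain summit. Among genes with 10 or more forebrain summits it was 0.604 over 34 members and 0.80 over 3239 genes. That filter uses the forebrain count, the denominator of the ratio, so it favours low ratios in both sets. The members are long genes, with a median length of 136 kb against 23.1 kb, and long genes as a class were more often lower in ectoderm. Among members over 100 kb, 25 of 30 were lower in all 4 ectoderm libraries, against 36.4% of all genes of that length. Among members of 100 kb or less, 7 of 20 were lower, against 14.9%. With lists of equal length, 25 of 50 members were lower, against 16.9% of genes, and 20 of the 30 long members, against 26.9%. Of the 32 members, 24 kept the call, and those that did not were Sema5a, Sema6d, Plxna2, Plxnd1, Efna5, Efnb2, Unc5b and Unc5c. Of these, Unc5b turned round, with 6, 6, 6 and 7 summits in ectoderm against 5 in forebrain, and Sema5a, with 14, 15, 5 and 12 against 11, was lower in 1 ectoderm library alone.

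**Figure D1:**
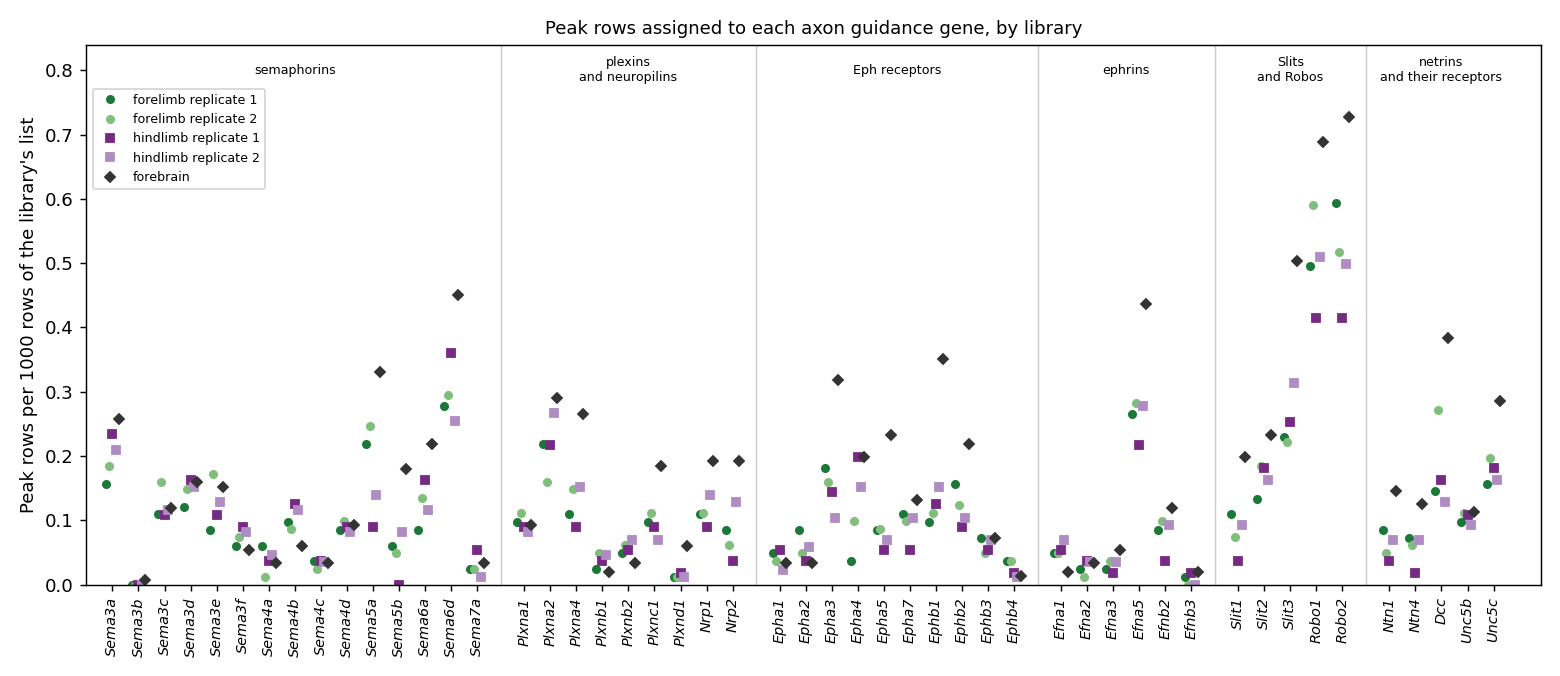
Peak summits (list rows) assigned to each of the 50 members per 1000 rows of that library's list, on a linear axis, with 1 point per library and genes grouped by family. The long genes Robo1 and Robo2 stand highest in every library, and the forebrain point lies above all 4 ectoderm points for 32 members.

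**Figure D2:**
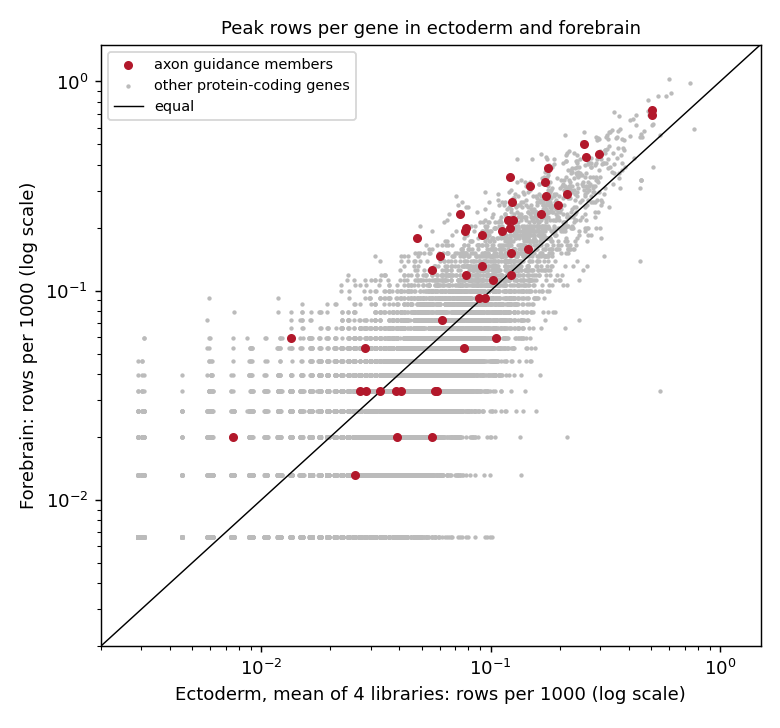
Summits per 1000 of each gene in ectoderm (mean of 4 libraries, horizontal, log scale) and forebrain (vertical, log scale), for genes with a summit in both. Red points are members and the line marks equal values. The medians of ectoderm over forebrain were 0.676 for the members and 1.18 for all genes with a forebrain summit. Among genes with 10 or more forebrain summits, a filter that itself favours low ratios, they were 0.604 and 0.80.

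Overlapping peaks of the 5 libraries were merged into regions, and 1765 of 165522 regions assigned to a gene belonged to members. Ectoderm-only regions, with a peak in all 4 ectoderm libraries and none in forebrain, numbered 44 (2.49%), against 2.33% of all assigned regions, which is close to the background. Forebrain-only regions, with no peak in any ectoderm library, numbered 834 (47.3%), against 31.9%. The 2 rules are not alike, since forebrain-only needs a peak in 1 list, the longest, and ectoderm-only in all 4, including the shortest. The numbers 44 and 834 are thus not a measure of balance between tissues. Without forebrain, another 116 member regions (6.57%) had peaks in 2 or 3 ectoderm libraries and 490 (27.8%) in 1. Over all genes these were 12962 and 59695 of the 165522. Regions shared by all 5 libraries numbered 80 (4.53%), against 8.74%. With lists of equal length the forebrain-only regions were 236 of 847 (27.9%), against 12743 of 87715 over all genes, and the ectoderm-only ones 46 (5.43%), against 5.2%. Without hindlimb replicate 1, the shortest list, 76 of 1663 regions (4.57%) were ectoderm-only, against 5.15%. At least 1 ectoderm-only region was found at 25 of 50 members, against 14.7% of genes, and at 18 of the 30 members over 100 kb, against 43.8% of genes of that length. At least 1 forebrain-only region was found at 47 members, against 59.0%, the exceptions being Sema4c, Ephb4 and Efna1.

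Apart from the regions shared by all libraries, member regions of every class lay mostly inside gene bodies and not at starts. Of the 44 ectoderm-only regions at members, 2.27% lay within 1 kb of a start, 79.5% elsewhere inside the gene and 18.2% outside it, against 4.74%, 59.0% and 36.3% of the ectoderm-only regions of all genes. Of the 834 forebrain-only regions, 0.839% lay at a start, 87.3% inside and 11.9% outside, against 3.96%, 67.6% and 28.4% over all genes. Regions in 1 ectoderm library only lay inside in 78.6% and at a start in 0.408%. Those in 2 or 3 ectoderm libraries without forebrain had 81.9% and 1.72%. The comparisons with all genes are not matched for gene length, and the members are long. The 80 shared regions lay at a start in 42.5% and inside the gene in 45% of cases. Over all genes, 66.9% of shared regions lay at a start. Within each list, peaks were ranked by their −log10 p as percentiles, 100 being the strongest. Shared regions at members had a median percentile of 87.7 in the forebrain list, against 45.2 for the forebrain-only regions. The gene table gives no exons, so introns and exons are not told apart.

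**Figure D3:**
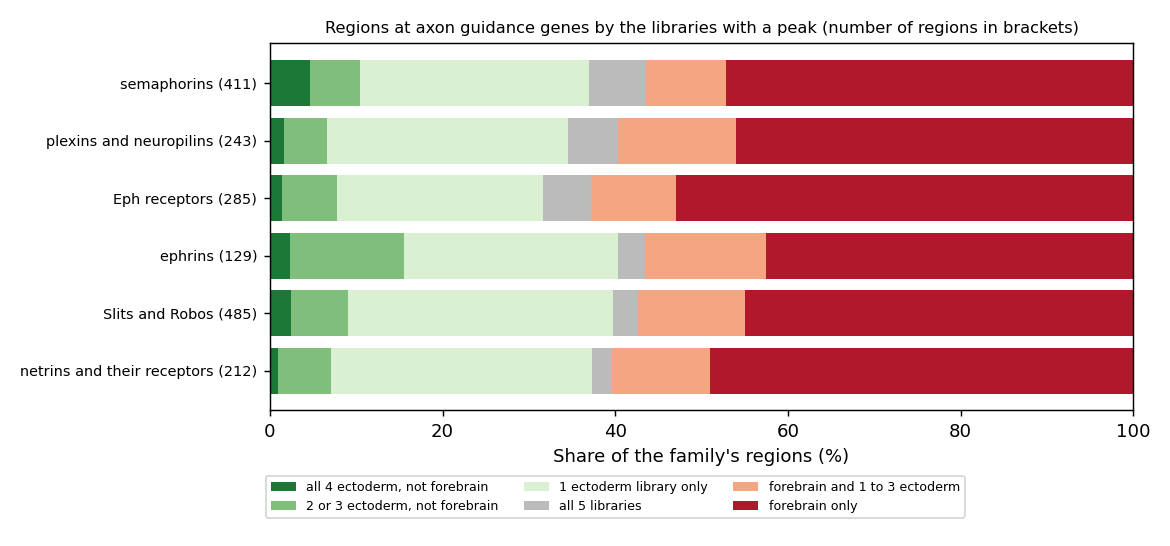
Share of each family's regions (percent, horizontal) by the libraries that had a peak there, with the number of regions in brackets. Forebrain-only regions made up 42.6% to 53.0% of every family, and ectoderm-only regions 0.943% to 4.62%.

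Among ligands, the semaphorins were the family with the smallest gap between tissues. Their 15 genes held 1.48, 1.71, 1.66 and 1.57 summits per 1000 in the ectoderm libraries (mean 1.60 ± 0.104 SD, n = 4), against 2.18 in forebrain, a forebrain to ectoderm ratio of 1.36. Counts of genes were 6 lower in all ectoderm libraries (Sema3a, Sema3b, Sema5a, Sema5b, Sema6a and Sema6d) and 2 higher (Sema3f and Sema4b). The classes differed among themselves. Class 3, the secreted semaphorins, had a forebrain to ectoderm ratio of 1.13 and class 4, which is membrane-bound, 0.819. Class 5 had 2.31 and class 6, also membrane-bound, 1.58. With lists of equal length, class 3 had 36, 41, 39 and 41 summits in ectoderm against 39 in forebrain, on both sides of it. Class 5 then had 16, 17, 5 and 15 against 21. Class 6 had 21, 23, 29 and 25 against 29, with hindlimb replicate 1 level. The class 4 value was above forebrain in each ectoderm library, at 0.278, 0.222, 0.289 and 0.278 summits per 1000, against 0.218. Of its 4 genes, Sema4b alone was above forebrain in every ectoderm library, and with lists of equal length class 4 had 17, 15, 16 and 17 summits in ectoderm against 15 in forebrain, so that forelimb replicate 2 was level. Of 411 semaphorin regions, 19 (4.62%) were ectoderm-only, against 2.33% of all assigned regions. Of the 19, 12 lay at class 3 genes, where they were 7.50% of 160 regions.

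Sema3d, Sema3a and Sema3e lie next to each other on chromosome 5. Sema3e, which signals through Plxnd1 without a neuropilin, had 7, 14, 6 and 11 summits in ectoderm and 23 in forebrain. Per 1000 its 0.0847, 0.172, 0.108 and 0.128 lay on both sides of the forebrain value of 0.152. The strongest ectoderm-only region of all members was assigned to Sema3e. It lay 32.0 kb outside the gene at chr5:13992699-13993487, with fold enrichments of 15.5, 16.1, 11.0 and 15.9 in the 4 ectoderm libraries and percentiles of 97.4, 99.1, 97.6 and 98.6. Fold enrichments and −log10 p values are the authors' own for each peak and its list, and are given to describe peaks, not to compare libraries. The strongest forebrain-only semaphorin region was also at Sema3e, inside the gene at chr5:14194874-14195765, with a fold of 13.9 at percentile 93.0. Both tissues had a strong peak of their own at this gene, while its start had a peak in all 5 libraries.

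Sema3a, a repellent of sensory axons, had 13, 15, 13 and 18 summits in ectoderm and 39 in forebrain, and 3 ectoderm-only regions. One of them, inside the gene at chr5:13144691-13145220, had folds of 9.96, 10.6, 9.45 and 17.7. Per 1000 summits Sema3a had 0.157, 0.185, 0.235 and 0.209 in ectoderm against 0.258 in forebrain, so each ectoderm library was lower. Sema3d had 10, 12, 9 and 13 summits in ectoderm and 24 in forebrain, also with 3 ectoderm-only regions, and its 0.121, 0.148, 0.162 and 0.151 per 1000 lay on both sides of the forebrain value of 0.159. Sema3c, a guidance cue in heart outflow tract development, had 9, 13, 6 and 10 summits in ectoderm and 18 in forebrain, with 2 ectoderm-only regions. Per 1000 its 0.109, 0.160, 0.108 and 0.116 lay on both sides of the forebrain value of 0.119. With lists of equal length Sema3c had 7, 9, 6 and 6 summits in ectoderm against 5 in forebrain. Sema3f, a ligand of Nrp2, had 0.0605, 0.0739, 0.0903 and 0.0812 summits per 1000 in ectoderm against 0.0530 in forebrain, and 2 ectoderm-only regions. That call was lost with lists of equal length. Sema3b had a single summit, in forebrain.

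Sema4b was the semaphorin with the clearest excess in ectoderm. It had 8, 7, 7 and 10 summits in ectoderm and 9 in forebrain, which is 0.0968, 0.0862, 0.126 and 0.116 per 1000 against 0.0596, and all 4 ectoderm libraries lay above forebrain. Of its 2 ectoderm-only regions, the one inside the gene at chr7:80191400-80191889 had folds of 6.84, 6.02, 6.06 and 9.25 and percentiles of 91.5, 87.2, 93.2 and 95. Both of its listed starts had a peak in all 5 libraries.

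At Sema4a the number of summits was small and mixed, at 5, 1, 2 and 4 in ectoderm and 5 in forebrain, and only the position set the tissues apart. The region at the inner start, chr3:88455539-88455948, had folds of 5.2, 6.21, 3.69 and 6.63 and percentiles of 82.4, 86.4, 78.2 and 86.7 in the ectoderm libraries. Their summits lay 34, 0, 13 and 4 bp from the inner start, whereas the nearest forebrain summit lay 3183 bp away. The starts 3123 and 3340 bp further upstream each lay within 1 kb of a summit, in peaks with folds of 2.33 in forelimb replicate 1, 3.87 in hindlimb replicate 2 and 5.0 in forebrain. Forelimb replicate 2 and hindlimb replicate 1 had no peak there. The outermost start had no peak within 1 kb in any library. Because 1 start or another was covered, Sema4a counts among the members with a start peak in all 5 libraries.

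**Figure D4:**
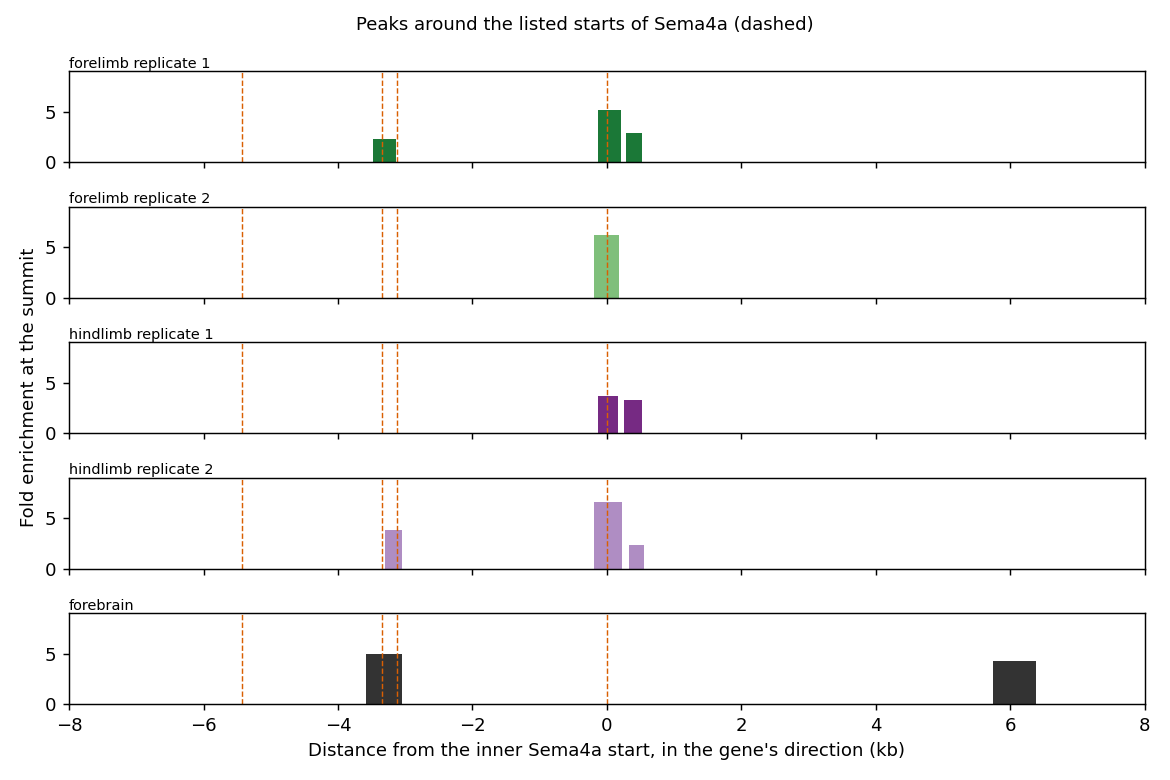
Peaks of each library around the Sema4a starts, with distance from the inner start in kb (negative is upstream in the gene's direction) and bar height giving the authors' fold enrichment at the summit. Dashed lines mark the 4 listed starts; a peak sits on the inner start in all 4 ectoderm libraries and in forebrain none does, its nearest summit being 3183 bp away.

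Sema4d had 7, 8, 5 and 7 summits in ectoderm and 14 in forebrain. Its 0.0847, 0.0985, 0.0903 and 0.0812 per 1000 against 0.0927 do not separate the tissues. With lists of equal length Sema4d had 4, 5, 5 and 4 summits in ectoderm against 3 in forebrain. Sema4d, a semaphorin that acts on B plexins, had a start on chromosome 13 with a summit 243 and 255 bp away in forelimb replicates 1 and 2 and 217 bp away in hindlimb replicate 2. The peak of hindlimb replicate 2 reached into the promoter window and those of the forelimb libraries did not. In hindlimb replicate 1 and forebrain the nearest summits were 18600 and 4486 bp away. The listed Sema4d starts, at 51739446 to 51756683, all lie inside the gene, and its upstream end at 51793678 was not among them. Sema4c, a semaphorin that acts through Plxnb2, had 3, 2, 2 and 3 summits in ectoderm and 5 in forebrain. Per 1000 its 0.0363, 0.0246, 0.0361 and 0.0348 lay on both sides of the forebrain value of 0.0331. The Sema4c start peak was shared by all libraries.

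The class 5 and 6 semaphorins were lower per 1000 in every ectoderm library, and with lists of equal length Sema5a and Sema6d were not. Sema5a, which acts on retinal axons, had 18, 20, 5 and 12 summits in ectoderm and 50 in forebrain. Sema5b had 5, 4, 0 and 7 in ectoderm and 27 in forebrain, which is 0.0605, 0.0492, 0 and 0.0812 per 1000 against 0.179. Sema6d held most summits of the family, with 23, 24, 20 and 22 in ectoderm and 68 in forebrain, and all 4 ectoderm libraries were lower per 1000, at 0.278, 0.295, 0.361 and 0.255 against 0.45. Sema6a, which guides thalamocortical axons, had 7, 11, 9 and 10 summits in ectoderm and 33 in forebrain. One Sema6a region in all 5 libraries lay 2.19 kb from the nearest gene end, inside the gene, at percentiles of 97.3, 98.1, 99.2 and 98.4 in ectoderm and 97.5 in forebrain. Sema7a, which has a lipid anchor, had 2, 2, 3 and 1 summits in ectoderm and 5 in forebrain. Per 1000 its 0.0242, 0.0246, 0.0542 and 0.0116 lay on both sides of the forebrain value of 0.0331.

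Among the semaphorin receptors, A plexins and neuropilins had more of their summits in forebrain and B plexins in ectoderm. The 9 plexin and neuropilin genes together had 0.799, 0.825, 0.722 and 0.963 summits per 1000 in ectoderm (mean 0.827 ± 0.10 SD, n = 4), against 1.33 in forebrain. The B plexins, which are receptors of class 4 semaphorins, had 0.0726, 0.111, 0.0903 and 0.116 in ectoderm against 0.0530 in forebrain. This rests on few summits: Plxnb1 had 2, 4, 2 and 4 in ectoderm and 3 in forebrain, and Plxnb2 4, 5, 3 and 6 in ectoderm and 5 in forebrain. Both lost the call with lists of equal length. Both had a start peak in all 5 libraries, and Plxnb2 also had an ectoderm-only region.

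Plxna2 held most summits of the receptors of this family, with 18, 13, 12 and 23 in ectoderm and 44 in forebrain, or 0.218, 0.160, 0.217 and 0.267 per 1000 against 0.291. Of its 2 ectoderm-only regions, one inside the gene at chr1:194675695-194676249 had folds of 9.37, 10.2, 5.78 and 12.7 at percentiles of 92.0, 94.6, 88.7 and 94.1. Plxna4, which acts with neuropilins in sensory axons, had 9, 12, 5 and 13 summits in ectoderm and 40 in forebrain and no ectoderm-only region. Plxna1 had 8, 9, 5 and 7 in ectoderm and 14 in forebrain, with 0.0968, 0.111, 0.0903 and 0.0812 per 1000 around the forebrain value of 0.0927. Plxnd1, the receptor of Sema3e, had 1 summit in each ectoderm library and 9 in forebrain. Its start had a peak in forebrain and in every ectoderm library but hindlimb replicate 1.

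Nrp1 had 9, 9, 5 and 12 summits in ectoderm and 29 in forebrain, and Nrp2 had 7, 5, 2 and 11 in ectoderm and 29 in forebrain. Per 1000, the neuropilins together had 0.194, 0.172, 0.126 and 0.267 in ectoderm against 0.384 in forebrain, and none of their 64 regions was ectoderm-only. The strongest forebrain-only region of the family lay 23.6 kb outside Nrp1 at chr8:128528418-128529480, with a fold of 13.3 at percentile 95.3.

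Plxnc1 had 8, 9, 5 and 6 summits in ectoderm and 28 in forebrain, 0.0968, 0.111, 0.0903 and 0.0696 per 1000 against 0.185. Plxnc1 is the plexin that binds Sema7a. A summit lay 695 and 20 bp from its listed start on chromosome 10 in forelimb replicates 1 and 2 and 3 bp in forebrain. In hindlimb replicates 1 and 2 the nearest summits were 13639 and 4556 bp away. A peak overlapped the promoter window itself in forelimb replicate 2, where it was weak with a fold of 2.36 at percentile 2.38, and in forebrain, and not in forelimb replicate 1.

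Eph receptors combined starts that were open in every library with many forebrain-only regions. The 10 genes had 0.907, 0.849, 0.830 and 0.847 summits per 1000 in ectoderm (mean 0.859 ± 0.0337 SD, n = 4), against 1.60 in forebrain, a ratio of 1.87. The EphB receptors had a ratio of 2.0 and the EphA receptors 1.78. Of 285 regions, 151 (53.0%) were forebrain-only and 4 (1.40%) ectoderm-only. Another 18 had peaks in 2 or 3 ectoderm libraries and 68 in 1, without forebrain. Over all members the forebrain-only and ectoderm-only shares were 47.3% and 2.49%, and over all genes 31.9% and 2.33%. All 10 listed Eph receptor genes had a start peak in all 5 libraries, against 54.3% of genes. At Epha7, whose product shapes the folding neural tube and cortex, that peak had folds of 13.6, 12.9, 12.5 and 16.6 in ectoderm and 13.2 in forebrain, at percentiles of 99.4, 99.5, 99.4, 99.7 and 99.8 of the 5 lists. The start of Ephb3 had percentiles of 99.1, 97.3, 95.8 and 99.3 in ectoderm and 99.5 in forebrain.

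Ephb1, which directs retinal axons at the optic chiasm, had 8, 9, 7 and 13 summits in ectoderm and 53 in forebrain, which is 0.0968, 0.111, 0.126 and 0.151 per 1000 against 0.351. Of its 58 regions 38 were forebrain-only. Epha3 had 15, 13, 8 and 9 summits in ectoderm and 48 in forebrain, and Epha5 had 7, 7, 3 and 6 in ectoderm and 35 in forebrain. In each of these genes every ectoderm library lay below forebrain. The strongest forebrain-only Eph region lay inside Epha3 at chr16:63806119-63807145, with a fold of 15.6 at percentile 96.8.

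Epha1, a receptor known from epithelia, had 4, 3, 3 and 2 summits in ectoderm and 5 in forebrain, 0.0484, 0.0369, 0.0542 and 0.0232 per 1000 against 0.0331. The strongest ectoderm-only region of the Eph receptors lay 6.14 kb outside Epha1 at chr6:42379244-42379624, with folds of 7.43, 6.53, 4.34 and 7.86 at percentiles of 85.9, 86.6, 80.6 and 87.1. Its start peak stood at percentiles of 92.6, 95.8, 92.7 and 96.8 in the ectoderm lists and 77.2 in the forebrain list. Epha2, the main EphA receptor of epidermis, had 7, 4, 2 and 5 summits in ectoderm and 5 in forebrain. Per 1000 it had 0.0847, 0.0492, 0.0361 and 0.0580 against 0.0331. It was the 1 listed Eph receptor with more per 1000 in every ectoderm library. Ephb4, the venous partner of Efnb2, had 3, 3, 1 and 1 summits in ectoderm and 2 in forebrain. Per 1000 its 0.0363, 0.0369, 0.0181 and 0.0116 lay on both sides of the forebrain value of 0.0132. Epha4, which keeps spinal and limb nerve paths apart, had 3, 8, 11 and 13 in ectoderm and 30 in forebrain. Per 1000 Epha4 had 0.0363, 0.0985, 0.199 and 0.151 against 0.199, so hindlimb replicate 1 was level with forebrain. Epha7, Ephb2 and Ephb3 were lower in all ectoderm libraries, Ephb3 by the smallest margin, with 0.0726 per 1000 in forelimb replicate 1 against 0.0728.

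The ephrins, ligands of these receptors, had 0.460, 0.480, 0.379 and 0.510 summits per 1000 in ectoderm (mean 0.457 ± 0.0561 SD, n = 4), against 0.682 in forebrain. Most came from Efna5, which patterns topographic maps in the brain, with 22, 23, 12 and 24 summits in ectoderm and 66 in forebrain. Its strongest forebrain-only region lay inside the gene at chr17:62659433-62660293, with a fold of 9.85 at percentile 94.5. Efnb2, the arterial ephrin, had 7, 8, 2 and 8 summits in ectoderm and 18 in forebrain. Its start peak was strong in all libraries, with percentiles of 98.2, 97.7, 96.6 and 97.0 in ectoderm and 99.1 in forebrain. The strongest ectoderm-only ephrin region lay 30.3 kb outside Efnb2 at chr8:8586416-8587081, with folds of 6.45, 5.19, 3.48 and 9.67.

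Efna1, the ligand of Epha2 in epithelia, was the ephrin with more summits per 1000 in every ectoderm library, from counts of 4, 4, 3 and 6 in ectoderm and 3 in forebrain. Per 1000 this was 0.0484, 0.0492, 0.0542 and 0.0696 against 0.0199, a forebrain to ectoderm ratio of 0.359, the lowest of the members. It had 1 ectoderm-only region and no forebrain-only region, and kept the call with lists of equal length, as did Epha2 and Sema4b. Efna3, its neighbour on chromosome 3, went the other way, with 2, 3, 1 and 3 summits in ectoderm and 8 in forebrain. Efna2 had 2, 1, 2 and 3 in ectoderm and 5 in forebrain. Per 1000 its 0.0242, 0.0123, 0.0361 and 0.0348 lay on both sides of the forebrain value of 0.0331. Efnb3, a midline repellent of corticospinal axons, had 1, 0, 1 and 0 summits in ectoderm and 3 in forebrain, and was the 1 member with a start peak in forebrain and no ectoderm library, against 4.24% of genes.

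Slits and Robos held the most summits for their number, and all 5 were lower in every ectoderm library. They had 1.56, 1.59, 1.3 and 1.58 summits per 1000 in ectoderm (mean 1.51 ± 0.138 SD, n = 4), against 2.35 in forebrain. Among the ligands, Slit3 had 19, 18, 14 and 27 summits in ectoderm and 76 in forebrain, Slit2 had 11, 15, 10 and 14 in ectoderm and 35 in forebrain, and Slit1 had 9, 6, 2 and 8 in ectoderm and 30 in forebrain. Slit3 had 3 ectoderm-only regions, Slit2 had 1 and Slit1 none. Slit1 had no start peak by the distance used, but a forebrain-only region at chr19:41745738-41746691, 1.02 kb from a gene end, had a fold of 9.67 at percentile 93.0.

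The receptors Robo1 and Robo2 are neighbours on chromosome 16 and had the highest counts of all members. Robo2 had 49, 42, 23 and 43 summits in ectoderm and 110 in forebrain, and Robo1 had 41, 48, 23 and 44 in ectoderm and 104 in forebrain. Both genes are very long, at 1555.5 kb for Robo2 and 1020.0 kb for Robo1. Per 100 kb of the stretch assigned to each gene, Robo2 had 2.97, 2.54, 1.39 and 2.6 summits in ectoderm and 6.66 in forebrain. Robo1 had 3.66, 4.29, 2.05 and 3.93 in ectoderm and 9.29 in forebrain. These densities are not scaled for list length, and the forebrain list is the longest. Per 1000 summits, Robo2 had 0.593, 0.517, 0.415 and 0.499 in ectoderm against 0.728 in forebrain. Robo1 had 0.496, 0.591, 0.415 and 0.510 per 1000 against 0.688. Robo2 had 5 ectoderm-only regions, the most of any member, and Robo1 had 3. The strongest ectoderm-only region of the family by mean percentile lay inside Robo1 at chr16:72993162-72993928, 330 kb from the nearest listed start, with folds of 8.80, 7.06, 6.0 and 10.4. The strongest forebrain-only region lay inside Robo1 at chr16:72510500-72511429, with a fold of 14.7 at percentile 97.3. The Robo1 start was at percentiles of 97.4, 98.5, 97.3 and 97.6 in ectoderm and 94.9 in forebrain.

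Netrins and their receptors were lower in every ectoderm library for all 5 genes, and with lists of equal length for 3, while Unc5b was then higher. Together they had 0.557, 0.689, 0.505 and 0.522 summits per 1000 in ectoderm (mean 0.568 ± 0.0835 SD, n = 4), against 1.05. Of 212 regions, 104 (49.1%) were forebrain-only and 2 (0.943%) ectoderm-only, against 31.9% and 2.33% of all assigned regions. Another 13 of the 212 had peaks in 2 or 3 ectoderm libraries and 64 in 1, without forebrain. The ligand Ntn1, the chemoattractant of commissural axons, had 7, 4, 2 and 6 summits in ectoderm and 22 in forebrain, and Ntn4 had 6, 5, 1 and 6 in ectoderm and 19 in forebrain. The strongest ectoderm-only region of the family lay inside Ntn4 at chr10:93644810-93645260, with folds of 4.42, 3.93, 3.57 and 6.46.

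The netrin receptor Dcc had 12, 22, 9 and 11 summits in ectoderm and 58 in forebrain, with 42 of 85 regions forebrain-only and none ectoderm-only. Unc5c, which turns the netrin response into repulsion, had 13, 16, 10 and 14 in ectoderm and 43 in forebrain. Its strongest forebrain-only region lay inside the gene at chr3:141818995-141819977, with a fold of 8.20 at percentile 87.8. Unc5b, a receptor of vessels, was close between tissues, with 8, 9, 6 and 8 summits in ectoderm and 17 in forebrain, or 0.0968, 0.111, 0.108 and 0.0928 per 1000 against 0.113. Over all families, the 26 ligands had a forebrain to ectoderm ratio of 1.52 and the 24 receptors 1.63, and these ratios came from the same libraries with no test of their difference.

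Starts of the members were mostly shared between tissues. A start peak was present for 44, 41, 35 and 42 members in ectoderm and for 46 in forebrain. In all 5 libraries it was present for 32 of 50 members, against 54.3% of genes. No member had one in every ectoderm library but not in forebrain, against 0.578% of genes, and 1 (Efnb3) had one in forebrain alone. By family, the starts open in all libraries were 11 of 15 semaphorins, 4 of 9 plexins and neuropilins, 10 of 10 Eph receptors, 2 of 6 ephrins, 3 of 5 Slits and Robos and 2 of 5 netrins and receptors. Sema3a, Sema3b and Slit1 had none in any library. The listed Sema3a start, at 13396784, lies inside the gene, whose upstream end at 13124822 was not counted as a start. Among the listed Sema4d starts, too, none lies at the upstream gene end. For 9 members without a listed promoter (Sema3b, Sema3f, Sema6a, Plxna1, Plxna4, Efnb3, Slit1, Ntn1 and Dcc) either gene end was taken as a start. Listed starts with a peak in all 5 libraries, 33 starts of 29 genes, had a median G+C share of 65.3% and a CpG ratio of 0.685, and the other 22 starts had 62.7% and 0.532.

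**Figure D5:**
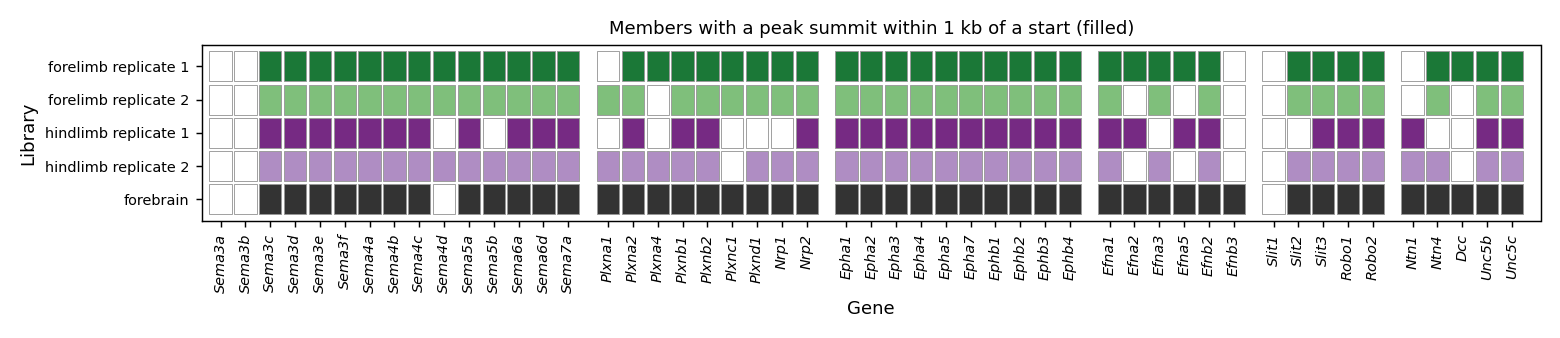
Libraries (down) in which each member (across, by family) had a peak summit within 1 kb of a start, shown as a filled cell. All 10 Eph receptors are filled in every library, 32 of 50 members are, and Efnb3 is filled in forebrain alone.

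Between limbs the differences were few and rested on small counts. Summits per 1000 were higher in both forelimb than in both hindlimb libraries for 8 members, against 19.7% of genes, and lower for 9, against 11.0%. The 8 were Sema5a, Plxna1, Plxnc1, Epha3, Epha5, Ephb2, Ephb4 and Robo2, and the 9 were Sema3a, Sema3d, Sema3f, Sema4b, Epha4, Ephb1, Efna1, Efna2 and Slit3. With lists of equal length, 4 of the 8 and 2 of the 9 kept the call. With any 1 ectoderm library left out, which leaves fewer values to order, 15 to 22 members were higher in forelimb and 13 to 15 in hindlimb. Sema5a had 0.218 and 0.246 per 1000 in forelimb, against 0.0903 and 0.139 in hindlimb, and Epha4 had 0.0363 and 0.0985 in forelimb, against 0.199 and 0.151 in hindlimb. Both kept the call.

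Of the member regions, 20 (1.13%) had a peak in both forelimb and in neither hindlimb library, against 1.98% of all regions, and 10 (0.567%) the opposite, against 0.663%. Most of these peaks were weak in their lists. At Slit2, one forelimb-only region inside the gene at chr5:48126038-48126354 had folds of 6.51 and 4.42, at percentiles of 76.6 and 57.4. At Plxna1, a forelimb-only region that was also present in forebrain lay outside the gene at chr6:89281449-89282120, at percentiles of 77.2 and 76.2 in forelimb and 77.2 in forebrain. At Plxna2, a hindlimb-only region inside the gene at chr1:194689521-194690020 had folds of 3.41 and 5.81, at percentiles of 65.4 and 78.0. The start of Ntn1 had a peak in both hindlimb libraries and forebrain, with folds of 2.48 and 2.84 in hindlimb and 4.46 in forebrain, and in neither forelimb library.

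Other genes of these pathways were counted from lists that held no member. Of 26 further receptors and ligands, 24 had a summit, and 11 were lower and 3 higher in all 4 ectoderm libraries than in forebrain, with a median ectoderm to forebrain ratio of 0.762. Of 34 cytoplasmic effectors such as adaptors, small GTPases and their regulators, 10 were lower and 8 higher, with a median of 1.05. Start peaks in all 5 libraries were found for 12 of the 26 and for 28 of the 34. Over all genes with a summit, 17.6% were lower, 28.2% were higher and 54.3% had a start peak in all 5 libraries. Over the same comparison, 8 of 10 epidermis markers were higher and none lower in ectoderm, and 9 of 11 forebrain markers were lower and none higher. Lower values were not particular to forebrain markers. They were found for 4 of 6 limb mesenchyme, 4 of 5 melanocyte and Schwann cell and 1 of 6 endothelial markers. Of 4 blood markers with a summit, 2 were lower, and no marker of these lists was higher.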

How the data were processed

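Peaks came from ATAC-seq of 5 libraries. Per the submitters' processing notes, the mm10 build was used with MACS2 2.1.1.20160309, Bowtie2 2.3.5, cutadapt 1.16, bedtools and Picard. Whether reads were shifted is not given in sources used here. The authors deposited 1 list per library, with peaks called per sample. Each row of the deposited lists has an interval, a summit, a score (not used), a fold enrichment (a ratio) and −log10 p and −log10 q. The smallest −log10 q was 1.30 or 1.31 in each deposited list. No read counts are in the lists.

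The members, families and other lists were chosen with earlier results of these data known. Rows were counted by the rule in the report, ties for each gene, against a RefSeq gene table of GRCm38.p6 with 21887 protein-coding genes. Intervals of all libraries were merged by 1 bp of overlap into 231612 regions, of which 165522 were assigned by the summit of highest within-list rank. A start peak is a summit within 1 kb of a start in the RefSeq promoter table (41 members) or of either gene end (9 members). Motifs were sought on both strands of the promoter windows. Members given in full were the 2 per family with most summits in forebrain, the 2 with most in ectoderm, those with an ectoderm-only region or a start peak in 1 tissue, and the Sema4a, Sema4d, Plxnc1 and Epha7 starts and the limb regions named were chosen after their values were seen. The counting was tested on simulated data. Python 3.11.15 with numpy 2.4.6, pandas 2.3.3 and matplotlib 3.10.9 was used. Alternatives were a −log10 q of at least 5, windows of 20 kb and 100 kb, each interval counted once, and summits shared by genes left out. Others were regions built by joining summits within 150 bp, lists of equal length, and each ectoderm library left out in turn. Gene ends counted as starts too was chosen after seeing the data.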

Additional observations from a re-analysis of the deposited data

Results flagged for a closer look

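Plxna1 and Efna2 stood on opposite sides of the forebrain value in the 2 limbs. Plxna1 averaged 0.104 summits per 1000 in forelimb and 0.0857 in hindlimb, a difference of 0.0181, with 0.0927 in forebrain, so that both forelimb libraries lay above forebrain and both hindlimb libraries below it. Efna2 averaged 0.0183 in forelimb and 0.0355 in hindlimb, a difference of -0.0172, with 0.0331 in forebrain, in the opposite sense. Neither difference between the limbs was tested. Both rest on few summits, 5 to 9 per ectoderm library for Plxna1 and 1 to 3 for Efna2, and neither gene kept its order of the limbs with lists of equal length.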

How the results depend on the processing

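Of 124 values from 11 results, 106 stayed within the margin set for them, the spread of the ectoderm libraries for the level and 1.5 times for a count, and 18 did not. Some of the 106 could not move. Start peaks do not depend on the 20 kb and 100 kb windows, on shared summits or on joining within 150 bp. Summits per 1000, and the calls made from them, do not depend on joining either. The difference in level kept its sign in every setting, and the other results are counts, which have no direction to change. Among single genes, Unc5b turned from lower to higher in all ectoderm libraries with lists of equal length. The difference in summits per 1000, ectoderm minus forebrain, was -3.37 and became -2.12 with lists of equal length, where forebrain-only regions numbered 236 and members higher in both hindlimb libraries 5, and where 1 member, Sema4a, had a start peak in ectoderm alone. With each interval counted once, 10 members were higher in ectoderm. At a −log10 q of at least 5, there were 26 ectoderm-only regions, 53 regions in all libraries and 5 members with a start peak in forebrain alone. Leaving out 1 ectoderm library gave 45 to 76 ectoderm-only regions, 76 without hindlimb replicate 1. It gave 15 to 22 members higher in forelimb and 13 to 15 higher in hindlimb, with 1 library fewer to satisfy. It gave 1 to 2 members with a start peak in forebrain alone (2 without forelimb replicate 1). In ectoderm alone it gave 0 to 1 (1 without hindlimb replicate 1, Sema4d, by a listed start inside the gene). Counting gene ends as starts too gave 34, 1 and 0 members with a start peak in all libraries, forebrain alone and ectoderm alone. No paired analysis was possible because no result comes from a test. List length, which was 55391 to 151077 summits, limits what a missing peak can mean.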
